A study of Mus musculus with 4 samples.

Results

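Globins and other red cell genes were examined in RNA from dorsal and medial palliums of E11.5 mouse embryos, the forebrain wall that forms neocortex and hippocampus. The set held 9 genes out of the 16449 in the count table, chosen by name. These were the embryonic beta-type globins Hbb-bh1 and Hbb-y, the adult beta-type globins Hbb-bs and Hbb-bt, the embryonic alpha-type globin Hba-x, the adult alpha-type globins Hba-a1 and Hba-a2, and the enzyme genes Alas2 and Car2. All 9 had a row. Poly(A)-enriched RNA was read as Nanopore long reads in 4 libraries. The WT group and the group labelled Tut1 knockout (KO-labelled below) had 2 libraries each. According to the study, the knockout combined a floxed Tut1 exon with Emx1-Cre, which is active in neural stem cells of the dorsal and medial pallium, and the WT libraries came from homozygous floxed embryos without Cre. The number of embryos behind each library is not stated, and the labels do not say whether replicates came from separate embryos. The p-values below measure only the spread between these libraries, which in the KO-labelled pair may be technical.

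Haemoglobin is a tetramer of alpha-type and beta-type chains around haem. Early mouse embryos are supplied by primitive red cells, which arise in the yolk sac and circulate with their nucleus, and which make the embryonic chains encoded by Hbb-bh1, Hbb-y and Hba-x beside adult alpha chains. As they mature, these cells shift from Hbb-bh1 towards Hbb-y and from Hba-x towards the adult alpha genes, while definitive red cells from the fetal liver make adult chains. Globin transcripts in a brain dissection are usually those of blood within it. In bulk RNA, fewer cells of a type and less RNA per cell cannot be told apart.

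The globin genes lie in a pair of clusters on GRCm38. The beta-type genes are on the minus strand of chromosome 7. Hbb-bt (ENSMUSG00000073940) spans 103812524 to 103813996, Hbb-bs (ENSMUSG00000052305) 103826534 to 103828096, Hbb-bh1 (ENSMUSG00000052217) 103841637 to 103843164 and Hbb-y (ENSMUSG00000052187) 103851749 to 103853216. Between Hbb-bh1 and Hbb-y lies Hbb-bh0 (ENSMUSG00000085700; 103850020 to 103850148), annotated as an unprocessed pseudogene with a transcript of 129 bases. The alpha-type genes are on the plus strand of chromosome 11, with Hba-x (ENSMUSG00000055609) at 32276400 to 32278116, Hba-a1 (ENSMUSG00000069919) at 32283511 to 32284465 and Hba-a2 (ENSMUSG00000069917) at 32296489 to 32297298. Alas2 (ENSMUSG00000025270) lies on chromosome X at 150547375 to 150570638, and Car2 (ENSMUSG00000027562) on chromosome 3 at 14886273 to 14900770.

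How far globin rows can share reads depends on how alike the transcripts are, and the sequences are shown for that reason. The coding sequences of Hba-a1 and Hba-a2 (429 bases each, from the annotated transcripts of GENCODE M21 on GRCm38) differ at 1 base, shown in capitals in the stretch from coding base 361 to 401, 5′ to 3′:
Hba-a1: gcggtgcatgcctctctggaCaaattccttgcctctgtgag
Hba-a2: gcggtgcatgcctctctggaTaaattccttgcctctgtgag

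The embryonic genes are much less like the adult ones. Over the coding sequence, Hba-x was 68.0% identical to Hba-a1, Hbb-y 74.3% and Hbb-bh1 74.9% identical to Hbb-bs, and Hbb-y 76.4% identical to Hbb-bh1. The first 75 coding bases show this, with capitals marking bases that differ from the adult gene above them:
Hbb-bs: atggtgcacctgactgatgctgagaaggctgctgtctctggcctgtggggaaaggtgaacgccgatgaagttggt
Hbb-y: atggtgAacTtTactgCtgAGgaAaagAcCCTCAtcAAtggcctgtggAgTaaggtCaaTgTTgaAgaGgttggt
Hbb-bh1: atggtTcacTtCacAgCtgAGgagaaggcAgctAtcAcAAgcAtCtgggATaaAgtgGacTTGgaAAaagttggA
Hba-a1: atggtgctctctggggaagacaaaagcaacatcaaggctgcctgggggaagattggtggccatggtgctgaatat
Hba-x: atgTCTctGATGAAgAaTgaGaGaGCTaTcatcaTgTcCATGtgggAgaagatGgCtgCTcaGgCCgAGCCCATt

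Hbb-bs and Hbb-bt differ at 1 of 444 coding bases, but their whole transcripts were 92.7% identical, with 46 mismatches. The pseudogene Hbb-bh0 was 88.8% identical to Hbb-bh1 over 125 aligned bases and 88.4% identical to Hbb-y over 129. It is aligned here to coding bases 316 to 440 of each, with capitals marking bases that differ from Hbb-bh0:
Hbb-bh0: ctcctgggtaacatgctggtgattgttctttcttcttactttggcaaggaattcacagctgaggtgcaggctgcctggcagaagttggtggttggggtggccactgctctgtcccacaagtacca
Hbb-bh1: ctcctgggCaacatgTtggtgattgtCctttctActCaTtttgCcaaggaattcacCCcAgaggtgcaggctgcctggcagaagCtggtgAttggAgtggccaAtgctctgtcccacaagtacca
Hbb-y: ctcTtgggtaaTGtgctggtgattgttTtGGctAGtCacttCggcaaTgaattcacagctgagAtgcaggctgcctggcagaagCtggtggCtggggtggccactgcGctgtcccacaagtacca
The treatment of reads that match several transcripts is not stated, so the split of counts between Hba-a1 and Hba-a2, between Hbb-bs and Hbb-bt, and between Hbb-bh0 and its embryonic neighbours is uncertain.

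The count table was shallow, with 305642 to 397150 counts per library, so that 1 count was worth 2.66 to 3.47 CPM (counts scaled to the total of the tested genes after TMM normalization). Depth here means that of the deposited table, since the study lists far more sequenced reads than were counted, and the reason is not given in the sources used here. WT replicate 1 was the only library with Xist counts (64) and the only one with 0 counts of Y-linked genes, against 71 in WT replicate 2, so the WT libraries came from different embryos, of different sex. Tut1, which checks the labels, was counted 6 and 11 times in WT but 29 and 25 times in the KO-labelled libraries, against the direction of a lost transcript (log2 fold change 1.71 ± 0.40, edgeR adjusted p = 0.0113). These counts do not separate transcripts with and without the floxed exon, so the genotype was not verified, and directions below are those of the labels.

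Globin transcripts were present in every library at a low level. The 7 globins together had 453 and 661 counts in WT replicates 1 and 2 and 863 and 436 in KO-labelled replicates 1 and 2, or 0.125%, 0.168%, 0.217% and 0.143% of each library. Summed, they reached 1609.2 ± 335.2 CPM in WT against 1903.9 ± 550.9 CPM in the KO-labelled libraries (mean ± SD, n = 2 each), a ratio of 1.18 with an error of 0.42. KO-labelled replicate 1 was the highest library and WT replicate 1 the lowest, and the groups overlapped. The ratio was 0.94 without KO-labelled replicate 1 and 1.43 without KO-labelled replicate 2.

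**Figure D1:**
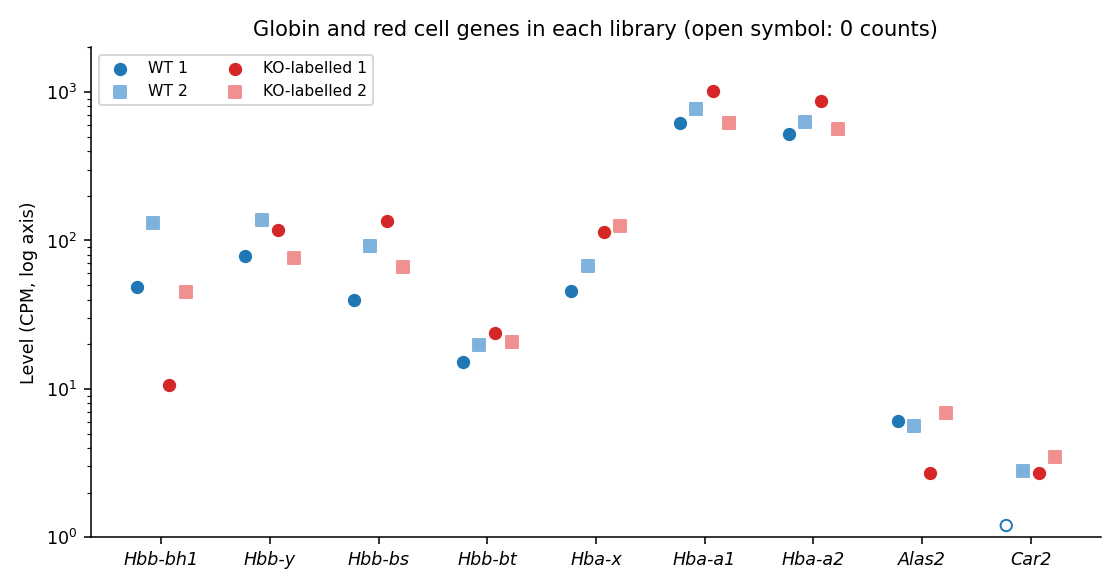
Level of the 9 genes in each library, in CPM on a log axis. Each point is 1 library, circles are replicate 1 and squares replicate 2, and the open circle marks 0 counts of Car2 in WT replicate 1. Hba-a1 and Hba-a2 lie between 524.0 and 1017.8 CPM, and Alas2 and Car2 lie at or below 6.9 CPM.

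The mix was dominated by the adult alpha genes in all 4 libraries. Hba-a1 and Hba-a2 together made up 83.4% and 75.8% of globin counts in WT and 82.5% and 78.0% in the KO-labelled libraries. Counts divided by transcript length gave 84.2%, 76.5%, 83.6% and 79.7%, though whether long-read counts rise with length was not tested. With Hba-x included, alpha-type genes held 86.8%, 79.4%, 87.5% and 86.2% of globin counts. WT replicate 2 was the lowest in this share (exact Clopper-Pearson 95% interval 76.1% to 82.4%), and its interval did not reach those of the other 3 libraries, which started at 82.6% or higher. All such intervals given here cover counting error only.

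Hba-a1 and Hba-a2 encode the adult alpha chain. Hba-a1 had 621.0 and 768.1 CPM in WT and 1017.8 and 614.8 CPM in the KO-labelled libraries. For Hba-a2 the values were 524.0 and 631.2 CPM in WT and 874.3 and 566.1 CPM in the KO-labelled libraries. KO-labelled replicate 1 stood highest for both, KO-labelled replicate 2 lay below WT for Hba-a1 and within it for Hba-a2, and the groups overlapped for both. The log2 fold changes, KO-labelled over WT, were 0.24 ± 0.17 for Hba-a1 (SE; edgeR adjusted p = 0.573) and 0.33 ± 0.17 for Hba-a2 (adjusted p = 0.39). With their rows summed before the fit the value was 0.28 ± 0.15 (adjusted p = 0.407). Hba-a1 took 54.2%, 54.9%, 53.8% and 52.1% of the counts of this pair, so that the split between the near-identical copies differed little between libraries. Without KO-labelled replicate 1 the log2 fold change was -0.18 for Hba-a1 and -0.03 for Hba-a2.

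Hba-x encodes zeta globin, the embryonic alpha-type chain. It had 45.4 and 67.0 CPM in WT and 114.3 and 125.0 CPM in the KO-labelled libraries. Both KO-labelled libraries lay above both WT libraries. The means were 56.2 ± 15.3 and 119.7 ± 7.6 CPM (SD, n = 2 each), and the log2 fold change was 1.07 ± 0.31, with an edgeR adjusted p of 0.0563 that missed the threshold of 0.05. Over all 18 alternatives it was positive, at 0.82 to 1.37, and DESeq2 gave an adjusted p of 0.716. The alternatives that summed rows left the row of Hba-x unchanged and do not check it. With a library left out, a group holds a lone library that is assumed to vary like the pair in the other group (1 residual degree of freedom), and such p-values, here and below, show which libraries a call leans on and not whether it holds. The adjusted p of Hba-x was past the threshold without WT replicate 2 (0.0438), when scaled by total counts (0.0453), with a filter of 10 counts in 2 libraries (0.0458) and in limma-voom (0.0493).

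As a share of alpha-type counts, Hba-x was at 3.82% (exact 95% interval 2.15% to 6.22%) and 4.57% (2.95% to 6.73%) in WT. In the KO-labelled libraries it was at 5.7% (4.15% to 7.6%) and 9.57% (6.8% to 13.0%). Per transcript length these shares were 3.0%, 3.6%, 4.49% and 7.59%. The highest was KO-labelled replicate 2, whose interval did not overlap those of the WT libraries, whereas the interval of KO-labelled replicate 1 overlapped both. The group means were 4.19% ± 0.534 and 7.63% ± 2.74 (SD, n = 2 each), and the difference of 3.44 points was 1.5 without KO-labelled replicate 2 and 5.38 without KO-labelled replicate 1. No test was made of the shares.

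Hbb-bh1, which encodes the embryonic beta-H1 chain, was the only one of the 9 genes past the threshold. It had 16 and 47 counts (48.5 and 131.3 CPM) in WT and 4 and 13 counts (10.6 and 45.2 CPM) in the KO-labelled libraries. The groups did not overlap, but KO-labelled replicate 2 lay just under WT replicate 1, and most of the distance came from the high WT replicate 2 and the low KO-labelled replicate 1. The means were 89.9 ± 58.6 and 27.9 ± 24.4 CPM (SD, n = 2 each). Hbb-bh1 fell by 1.80 on the log2 scale, with an SE of 0.46 (edgeR adjusted p = 0.0279). Of the 5878 genes tested, 2.06% were called in either direction and 0.663% were called lower, and of the 9 genes 6 were tested and 1 was called, lower. Calls in the higher direction took 1.4% of the tested genes and 0 of the 9, of which Hba-x had an unadjusted p of 0.00132 and the 4 tested globins beside it and Hbb-bh1 had 0.0613 or more. A lack of overlap is common in this comparison, with KO-labelled libraries above WT in 22.1% and below in 20.8% of tested genes. Among the 6 tested genes, Hba-x lay above and Hbb-bh1 below without overlap. The median log2 fold change of the 6 was 0.29, against -0.01 over all tested genes.

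The call for Hbb-bh1 leaned on single libraries. The edgeR adjusted p rose to 0.565 on leaving out WT replicate 2, to 0.63 on leaving out KO-labelled replicate 1 and to 0.0899 on leaving out KO-labelled replicate 2, with log2 fold changes of -0.92, -1.0 and -3.06. Without WT replicate 1 it was 1.45e-05 at a log2 fold change of -2.34. DESeq2 gave -1.71 ± 1.12 with an unadjusted p of 0.128 and no adjusted p. After thinning to the smallest library the log2 fold change was -1.81 ± 0.52, close to that from all counts, with an edgeR adjusted p of 0.132.

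The row of the pseudogene Hbb-bh0, which lies between Hbb-bh1 and Hbb-y and nearer to Hbb-y, ran the other way to that of Hbb-bh1. It had 18 and 10 counts (54.5 and 27.9 CPM) in WT and 27 and 23 counts (71.8 and 79.9 CPM) in the KO-labelled libraries. Both KO-labelled libraries lay above WT, and WT replicate 2, the highest library for Hbb-bh1, was the lowest for Hbb-bh0. The log2 fold change was 0.88 ± 0.37 (edgeR adjusted p = 0.246). With the rows of Hbb-bh1 and Hbb-bh0 summed, a setting chosen after their counts were seen, the levels were 103.0 and 159.2 CPM in WT and 82.4 and 125.0 CPM in the KO-labelled libraries. The groups then overlapped, and the log2 fold change was -0.37 ± 0.29 (edgeR adjusted p = 0.618). Whether reads were exchanged between these rows was not tested.

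**Figure D2:**
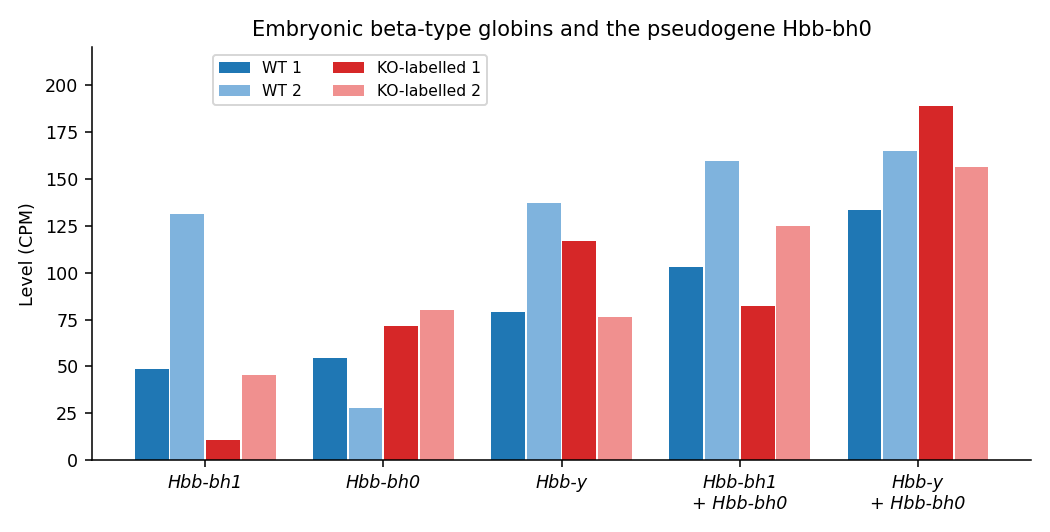
Level in CPM of Hbb-bh1, the pseudogene Hbb-bh0 and Hbb-y, and of the sums of Hbb-bh0 with each gene; each bar is 1 library. For Hbb-bh1 the KO-labelled bars (10.6 and 45.2) are below the WT bars (48.5 and 131.3), for Hbb-bh0 they are above them, and for the sum of Hbb-bh1 and Hbb-bh0 the groups overlap.

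Hbb-y encodes the epsilon-y chain, the other embryonic beta-type chain. It had 78.8 and 136.9 CPM in WT and 116.9 and 76.4 CPM in the KO-labelled libraries. Each group had a high and a low library, and the groups overlapped. The means were 107.8 ± 41.1 and 96.7 ± 28.7 CPM (SD, n = 2 each), and the fitted log2 fold change of -0.14 ± 0.30 had an edgeR adjusted p of 0.898. The sign was not stable, at 0.31 without WT replicate 2, 0.11 without KO-labelled replicate 2 and 0.22 when its row was summed with that of Hbb-bh0.

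Hbb-bs and Hbb-bt encode the adult beta chains. Hbb-bs had 39.4 and 92.2 CPM in WT and 135.5 and 66.0 CPM in the KO-labelled libraries. KO-labelled replicate 1 was the highest and WT replicate 1 the lowest, with overlap between groups. The log2 fold change was 0.64 ± 0.35 (edgeR adjusted p = 0.421), and it was -0.01 without KO-labelled replicate 1. Hbb-bt had 5 and 7 counts in WT against 9 and 6 in the KO-labelled libraries, too few to be tested. Its CPM values, 15.1 and 19.6 against 23.9 and 20.8, did not overlap. With no filter on low counts the log2 fold change was 0.37 ± 0.58 (edgeR adjusted p = 0.873), and a difference was not detectable with so few counts. Summed with Hbb-bs before the fit, the pair gave 0.59 ± 0.31 (edgeR adjusted p = 0.414).

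The balance of embryonic and adult beta-type transcripts differed between the libraries. Hbb-bh1 and Hbb-y together made up 70.0% (exact 95% interval 56.8% to 81.2%) and 70.6% (62.2% to 78.1%) of the beta-type counts in WT. In the KO-labelled libraries they made up 44.4% (34.9% to 54.3%) and 58.3% (44.9% to 70.9%). The WT libraries were alike, KO-labelled replicate 1 lay below both with no overlap of intervals, and the interval of KO-labelled replicate 2 overlapped those of both WT libraries. Group means were 70.3% ± 0.416 and 51.4% ± 9.82 (SD, n = 2 each), a difference of -18.9 points that was -25.8 without KO-labelled replicate 2 and -12.0 without KO-labelled replicate 1. Counts per transcript length gave 70.7%, 71.1%, 44.7% and 59.1%.

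Within this mix, the share of Hbb-y lay in a narrow range, and the library with the least Hbb-bh1 had the most Hbb-bs. Hbb-y held 43.3%, 36.0%, 40.7% and 36.7% of beta-type counts in WT replicates 1 and 2 and KO-labelled replicates 1 and 2. Hbb-bh1 held 26.7%, 34.6%, 3.7% and 21.7%, lowest in KO-labelled replicate 1 (exact 95% interval 1.02% to 9.21%). Hbb-bs held 21.7%, 24.3%, 47.2% and 31.7%, highest in that same library. Hbb-bt, with 5 to 9 counts per library, held the least in the other 3 libraries. Shares of a total are not independent of each other, and each library here rests on 60 to 136 beta-type counts. With Hbb-bh0 counted as embryonic, the embryonic share was 76.9%, 72.6%, 55.6% and 69.9%, a difference of -12.0 points between group means. Per transcript length these shares were 88.1%, 78.7%, 75.2% and 85.8%, the groups overlapped and the difference was -2.94 points. Dividing by the 129 bases of Hbb-bh0 gives it a heavy weight beside the 613 to 703 bases of the 4 genes. Whether counts of these long reads rise with transcript length was not tested, so this scaling may not suit them. The size of the difference in embryonic share thus depended on how Hbb-bh0 was counted.

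**Figure D3:**
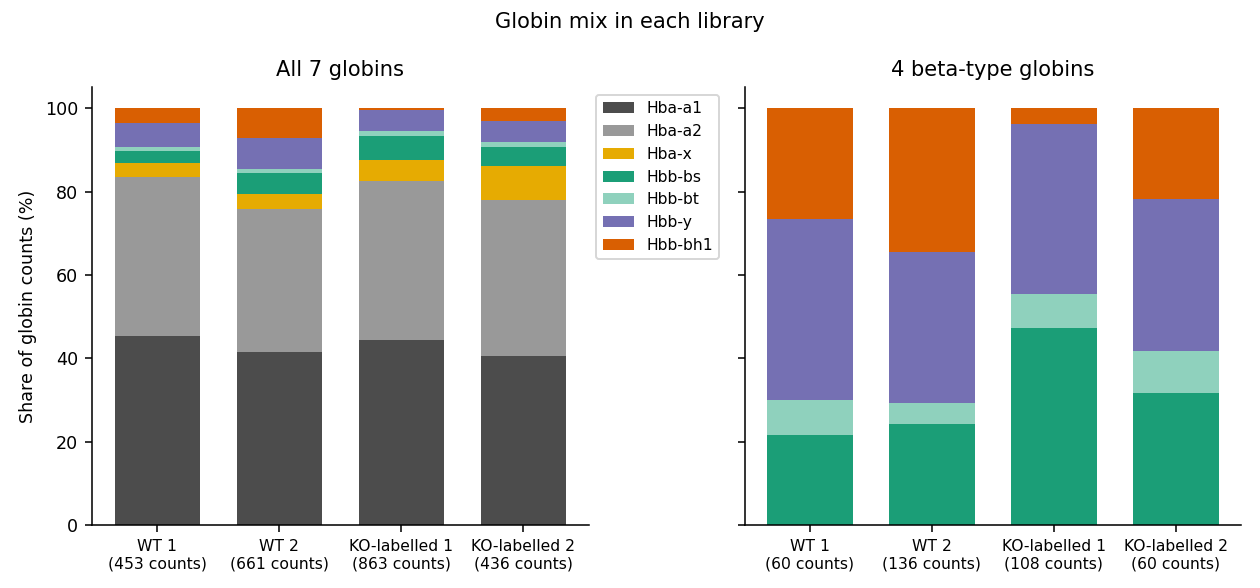
Share of globin counts taken by each gene in each library, in percent, for all 7 globins (left) and the 4 beta-type globins (right), with the number of counts under each bar. Hba-a1 and Hba-a2 fill 75.8% to 83.4% of the left bars, and in the right bars Hbb-bh1 fills 3.7% in KO-labelled replicate 1 and 21.7% to 34.6% in the other 3 libraries.

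Among the embryonic genes, the fitted log2 fold change was 1.07 for Hba-x, -0.14 for Hbb-y and -1.80 for Hbb-bh1. The 3 embryonic genes summed to 172.7 and 335.2 CPM in WT and 241.8 and 246.6 CPM in the KO-labelled libraries, with both KO-labelled libraries between the WT ones and a ratio of 0.96. As a share of all 7 globins they held 12.6% and 18.2% in WT and 10.5% and 16.3% in the KO-labelled libraries, with replicate 2 above replicate 1 in each group.

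Alas2, the erythroid enzyme that starts haem synthesis, had 2 and 2 counts in WT against 1 and 2 in the KO-labelled libraries. Car2, which encodes carbonic anhydrase 2, had 0 and 1 counts in WT against 1 and 1 in the KO-labelled libraries. All these values were under 3 counts per library, a floor of 7.97 to 10.4 CPM, and neither gene was tested. No fold is given for them, and differences were not detectable at this depth.

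**Figure D4:**
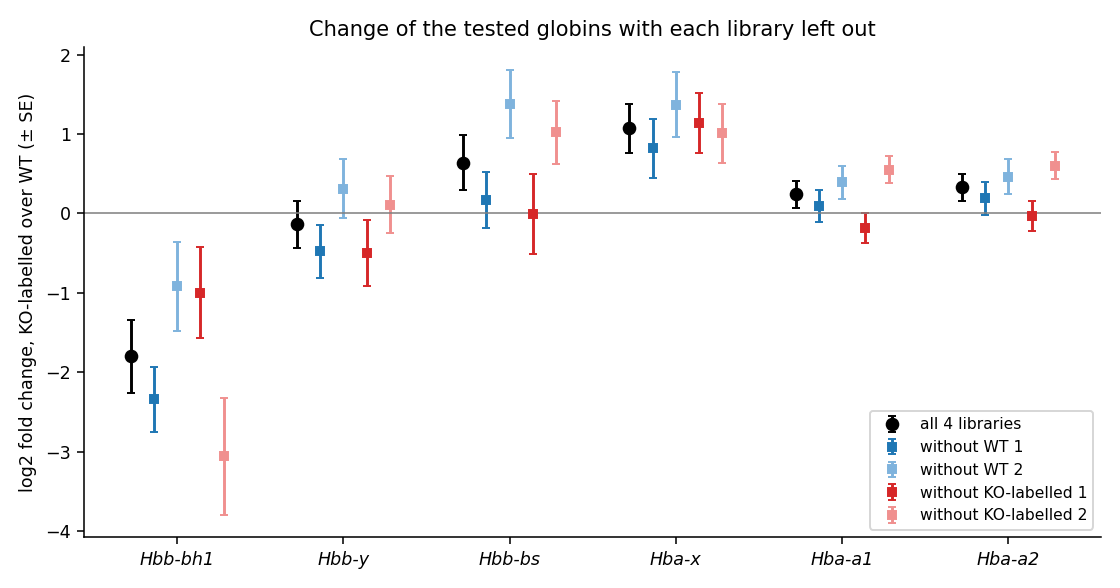
Fitted log2 fold change of the 6 tested globins, KO-labelled over WT, with SE bars, for all 4 libraries (black circles) and with each library left out in turn (coloured squares). Hbb-bh1 ranges from -3.06 to -0.92 as libraries are left out, Hba-x stays above 0 throughout, and Hbb-y, Hbb-bs, Hba-a1 and Hba-a2 fall on both sides of 0.

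Libraries of the same group differed by more than counting error for several globins. Between the WT libraries the ratio of replicate 2 to replicate 1 was 2.71 for Hbb-bh1 (exact 95% counting interval 1.51 to 5.12), 2.34 for Hbb-bs (1.2 to 4.85), 1.74 for Hbb-y (1.06 to 2.91) and 1.24 for Hba-a1 (1.03 to 1.49). WT replicate 2 was the higher in all 7 globins, and the interval reached 1 for Hba-x, Hba-a2 and Hbb-bt. The beta-type genes together differed by 2.09 (1.53 to 2.88) and the alpha-type genes by 1.23 (1.08 to 1.41).

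In the KO-labelled pair, most globins were lower in replicate 2. The ratio was 0.604 for Hba-a1 (exact 95% counting interval 0.503 to 0.724), 0.648 for Hba-a2 (0.533 to 0.784) and 0.487 for Hbb-bs (0.271 to 0.839). Hbb-bh1 went against the others with a ratio of 4.25, on 4 and 13 counts (1.31 to 17.9). Hba-x stayed close to 1 at 1.09 (0.683 to 1.74). The intervals of Hbb-y and Hbb-bt reached 1. Thus 4 of the 6 tested globins, and 0 of the 3 genes not tested, left out a ratio of 1 in each pair, whereas 8.46% of tested genes did so in WT and 7.38% in the KO-labelled pair. An interval narrows as counts rise, and the tested genes were not matched to the globins on counts, of which Hba-a1 and Hba-a2 had 163 or more per library.

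**Figure D5:**
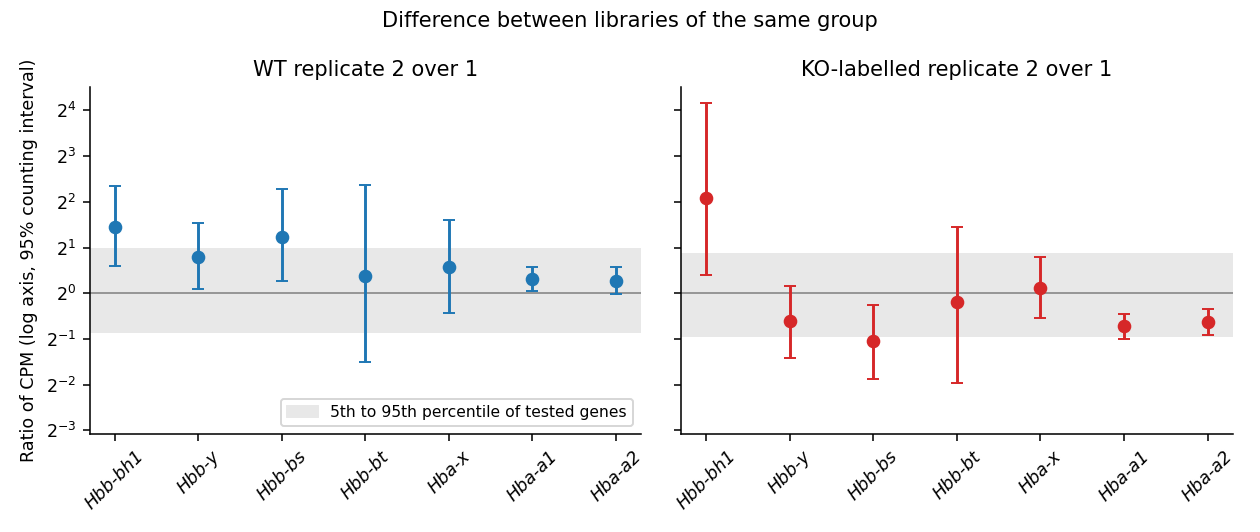
Ratio of CPM, replicate 2 over replicate 1, for the 7 globins in WT (left) and the KO-labelled pair (right), on a log axis with exact 95% counting intervals. The grey band is the 5th to 95th percentile of the ratio over tested genes, 0.553 to 1.96 in WT and 0.523 to 1.81 in the KO-labelled pair. Hbb-bh1 lies above the band in both pairs, at 2.71 and 4.25, and Hbb-bs lies above it in WT and below it in the KO-labelled pair.

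Other genes of red cells were taken from 4 lists. Those for haem synthesis, erythroid transcription factors, the red cell membrane and skeleton, and iron and haemoglobin handling held 46 genes, of which 36 had a row, 14 were tested and 0 were called (edgeR), with a median log2 fold change of -0.11. Since 2.06% of all tested genes were called, 0 of 14 is near the background. DESeq2 and limma-voom also called 0 of the 14, and with each of the 3 tools Lmo2 was the 1 gene with an unadjusted p below 0.05 (0.0018 in edgeR). In haem synthesis, Fech, which inserts iron into haem, had 39 and 61 counts in WT against 65 and 39 in the KO-labelled libraries. Alas1, the housekeeping counterpart of Alas2, had 34 and 51 against 55 and 47 counts (log2 fold change 0.32 ± 0.26, edgeR adjusted p = 0.646). Ppox had 21 and 23 against 21 and 21 counts. In CPM, both KO-labelled libraries lay above WT for Alas1, and the groups overlapped for Fech and Ppox.

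Of the transcription factors, the most abundant were Bcl11a, a repressor of embryonic globins that is also made in neurons, Ldb1 and Lmo2. Bcl11a had 238 and 225 counts in WT against 208 and 161 in the KO-labelled libraries (log2 fold change -0.28 ± 0.16, edgeR adjusted p = 0.446). Ldb1 had 95 and 142 against 109 and 89 counts. Lmo2, a bridging protein of the erythroid GATA factor complex that endothelium also uses, had 26 and 54 against 24 and 11 counts (-1.14 ± 0.34, adjusted p = 0.0658). Both KO-labelled libraries lay below WT in CPM for Bcl11a and Lmo2. Klf1, the activator of adult beta globin, had 5 and 5 against 1 and 0 counts and was too low to be tested. Gata1, Tal1 and Zfpm1 were not analysed here.

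In the membrane list, Epb41 (36 and 61 against 58 and 42 counts) and Add2 (28 and 33 against 26 and 29) were the only genes tested, and both are also made outside red cells. Slc4a1, the anion exchanger of red cells, had 2 and 6 against 5 and 0 counts. Among the iron genes the most abundant were Ftl1, Prdx2 and Fth1. Ftl1, the ferritin light chain, had 80 and 95 against 122 and 98 counts (log2 fold change 0.38 ± 0.19, edgeR adjusted p = 0.367). Of 12 other globin-family genes 4 had a row, and of these Hbb-bh0 was the only one tested. Hbq1b, a theta-type globin, had 2 and 10 against 5 and 3 counts.

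The list of 8 primitive red cell markers had 6 rows, all of them genes described above (Hbb-bh1, Hbb-y, Hba-x, Alas2, Klf1 and Slc4a1), so it adds no independent marker. Its genes summed to 200 and 371 CPM in WT against 260 and 254 CPM in the KO-labelled libraries, with overlap between groups. Markers of other cell types that a pallium dissection could hold were listed beside them, and their calls are to be read against the 1.4% of all tested genes called higher. The 10 markers of microglia and macrophages had 9 rows, with a sum of 96.9 and 106 CPM in WT against 409 and 344 CPM in the KO-labelled libraries. All 4 of them that were tested, Aif1, Csf1r, Cx3cr1 and Tyrobp, were higher (edgeR log2 fold changes of 1.39 to 2.53). The 10 endothelial markers summed to 233 and 257 against 412 and 386 CPM, with 0 of 3 tested genes called. The 8 markers of meningeal mesenchyme had 7 rows and summed to 103 and 268 against 476 and 320 CPM, with 1 of 4 tested genes called, Col1a2, which was higher (2.12 ± 0.47, adjusted p = 0.00742). Pericyte markers (6 rows of 7) summed to 18.2 and 22.3 against 39.9 and 27.8 CPM with 0 genes tested, and Anpep had 0 counts throughout. These sums rest on 6 and 8 counts in WT against 15 and 8 in the KO-labelled libraries. Platelet markers were at 0 except for 15.9 CPM in KO-labelled replicate 1, and Gp9, Ppbp and Gp1bb had 0 counts in all libraries. Pallial markers, which check the tissue, summed to 2454 and 2215 against 1775 and 1969 CPM over 12 genes. Lhx2 alone had 1054.1 and 759.7 CPM in WT against 281.7 and 368.2 CPM in the KO-labelled libraries. Between group means it fell by more than the sum did, so the remaining pallial markers together were not lower. Of 9 tested genes, 4 had a positive log2 fold change, and the median was -0.04. Lhx2 was called lower, as were 0.663% of all tested genes, and Dcx was called higher. The endothelial, microglial and mesenchymal sums were higher in both KO-labelled libraries, as was Hba-x. So was the pericyte sum, on few counts. Both KO-labelled libraries lay above WT in 22.1% of tested genes. The part of these cell types in the globin values was not tested.

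The 5 genes whose profile over the 4 libraries was most like that of the summed globins were Rab8a, Lsm1, Fam222b, Sgo1 and Me2. Likeness was the Euclidean distance between log2 CPM values centred over the libraries, and it ranged from 0.0388 for Rab8a to 0.0512 for Me2, against a median of 0.75 over the 5453 genes compared. These genes had 8 to 30 counts per library, so that their profiles carry large counting errors.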

How the data were processed

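Nanopore reads of poly(A)-enriched RNA from 2 WT libraries and 2 libraries labelled Tut1 knockout were mapped by the authors to the Ensembl transcriptome of the mouse (minimap2), followed by FLAIR. The deposited values are raw read counts for 16449 genes, without normalization. The handling of strand and of reads matching several genes, and the summing of isoforms, are not given in the sources used here. Identifiers were matched to GENCODE M21 on GRCm38 (16429, or 99.9%, matched), which also gave positions, lengths and sequences. Lengths are those of the longest annotated transcript.

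The test was that of edgeR 4.0.16 (R 4.3.3), run on the 5878 genes that filterByExpr kept with its defaults (minimum count 10, total 15). Libraries were scaled by TMM, and glmQLFit with glmQLFTest compared the groups, two-sided and with no covariate, with Benjamini-Hochberg adjustment over all tested genes and a threshold of 0.05. The biological coefficient of variation was 10.5%, with 2 residual and 37.5 prior degrees of freedom. Shares have exact Clopper-Pearson intervals, and replicate ratios exact conditional binomial intervals. DESeq2 1.42.0, limma-voom (limma 3.58.1), other scalings and filters, a replicate block, thinning, leaving out each library, and summed rows were alternatives. The procedure was tested on simulated data with the same dispersion for all genes. It found 48.5% of 2-fold and 88.5% of 4-fold changes, and 4.77% of its calls were false. Many 2-fold changes would thus be missed. Outside the 9 genes, called genes of each list, or at most 3 with the highest mean CPM, were named. Klf1, Slc4a1, Hbq1b and marker genes at 0 were named after their values were seen. The genes and lists were chosen with earlier results of these data known.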

Additional observations from a re-analysis of the deposited data

How the results depend on the processing

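The numbers behind a call were small, with 4 to 47 counts per library for Hbb-bh1, and depth limits every share of beta-type counts. Against 121 genes called, DESeq2 gave 12, thinning to the smallest library 37 and the replicate block 76, and leaving out each library gave 3 to 108. The labels do not say whether libraries with the same replicate number are paired. Their deviations from the group means had a correlation of -0.0614, which at such low counts cannot exclude pairing. The replicate block left 1 of the 9 genes called. That count of 1 was 2 (Hbb-bh1 and Hba-x) with total counts only, a filter of 10 counts in 2 libraries and limma-voom, and 0 with DESeq2, thinning, and Hbb-bh1 summed with Hbb-bh0, alone or with Hba-a1 and Hba-a2 summed as well. In DESeq2, which gave Hbb-bh1 no adjusted p, 1 of the 9 genes (Hba-x) had an unadjusted p below 0.05. Leaving out each library gave 0 to 1, and the gene called without WT replicate 2 was Hba-x. Signs turned when libraries were left out for Hbb-y (-0.5 to 0.31, and 0.22 summed with Hbb-bh0), Hbb-bs (-0.01 to 1.38), Hba-a1 (-0.18 to 0.55) and Hba-a2 (-0.03 to 0.6). Hbb-bh1 was negative under all 17 alternatives with an adjusted p, from -3.06 to -0.37. Those that only summed Hbb-y with Hbb-bh0, Hba-a1 with Hba-a2, or Hbb-bs with Hbb-bt left its row unchanged and do not check it. The globin ratio was 0.94 to 1.43, and the difference in embryonic share over libraries left out -25.8 to -12.0 points (beta-type; -2.94 per transcript length with Hbb-bh0 counted as embryonic) and 1.5 to 5.38 points (alpha-type). Causes were not tested.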
